A study of Mus musculus with 26 samples.

Results

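The immediate early genes examined here were Fos, Fosb, Jun, Junb, Jund, Egr1, Ier2, Atf3 and Dusp1, 9 of the 18193 genes measured. They are named by gene and the rule uses no signal, and every probe set that the platform annotation assigns to one of them alone was taken, 11 probe sets in all (2 each for Jun and Jund). They were measured in 26 single retinal cells from C57BL/6 mice carrying the Notch1 flox allele in homozygous form, each cell on its own Affymetrix array. The 13 N1-CKO cells came from retinas that received, at postnatal day 0, a CAG:Cre plasmid and the Cre-dependent reporter CALNL-GFP. The 13 WT cells came from retinas of the same floxed genotype that received CAG:GFP and no Cre, so WT here means floxed but not recombined. All retinas developed in vivo until postnatal day 3, when they were dissociated, and single GFP-positive cells were picked by eye and lysed. CAG is a ubiquitous promoter, so Cre was not limited to a cell type, and recombination was read in the picked cells through the reporter alone. No animal, litter or picking session is named in the labels. Each group therefore stands as 1 sample: values and the spread over cells are given, and no test between groups was made.

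Immediate early genes are transcribed within minutes of a stimulus without new protein synthesis, chiefly through the ERK, JNK and p38 MAP kinase pathways acting on serum response factor with its ELK partners and on CREB. Fos and Jun family proteins pair through leucine zippers into AP-1, which binds promoters and enhancers of later genes. Jun proteins can pair with each other, whereas Fos proteins need a Jun partner. Enzymatic dissociation of tissue into single cells is itself known to induce these genes, as are growth factors acting on dividing progenitors, and light and neuronal activity in the mature retina. The picked cells were fixed in their state only at lysis, after dissociation.

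Promoter sequences are shown for the 4 members whose window held a motif of the CREB and ATF type, because this is a site class through which these genes are known to be induced. The RefSeq promoter table (GRCm38.p6, from 250 bases before to 50 bases after the gene start) held 7 of the 9 members, all but Egr1 and Ier2, whose windows were not analysed here. Capitals mark matches on either strand to TGACGT, the core of the cyclic AMP response element, or to TGACNTCA, its longer form, which also takes in the variant that Jun with ATF2 is known to bind. The windows lie at chr12:85473640-85473939 on the plus strand for Fos, chr4:95052173-95052472 on the minus strand for Jun, chr1:191183284-191183583 on the minus strand for Atf3 and chr17:26508423-26508722 on the minus strand for Dusp1, each written 5′ to 3′ along its gene.
Fos: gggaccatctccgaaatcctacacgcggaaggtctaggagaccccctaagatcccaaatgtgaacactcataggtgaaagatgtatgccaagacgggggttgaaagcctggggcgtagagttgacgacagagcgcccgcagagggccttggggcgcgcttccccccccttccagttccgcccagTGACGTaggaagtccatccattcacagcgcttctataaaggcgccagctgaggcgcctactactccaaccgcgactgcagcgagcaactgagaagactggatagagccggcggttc
Jun: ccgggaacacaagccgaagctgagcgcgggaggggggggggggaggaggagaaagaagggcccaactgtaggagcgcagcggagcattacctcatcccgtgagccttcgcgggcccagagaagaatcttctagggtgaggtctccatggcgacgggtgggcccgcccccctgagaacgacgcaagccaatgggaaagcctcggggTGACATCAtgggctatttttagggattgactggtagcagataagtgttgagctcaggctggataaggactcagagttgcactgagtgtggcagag
Atf3: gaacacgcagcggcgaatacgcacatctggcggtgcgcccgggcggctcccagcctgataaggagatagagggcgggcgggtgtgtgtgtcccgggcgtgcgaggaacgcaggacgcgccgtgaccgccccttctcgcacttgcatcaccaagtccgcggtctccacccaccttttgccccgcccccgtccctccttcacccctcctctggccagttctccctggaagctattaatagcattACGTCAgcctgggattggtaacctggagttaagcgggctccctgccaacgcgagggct
Dusp1: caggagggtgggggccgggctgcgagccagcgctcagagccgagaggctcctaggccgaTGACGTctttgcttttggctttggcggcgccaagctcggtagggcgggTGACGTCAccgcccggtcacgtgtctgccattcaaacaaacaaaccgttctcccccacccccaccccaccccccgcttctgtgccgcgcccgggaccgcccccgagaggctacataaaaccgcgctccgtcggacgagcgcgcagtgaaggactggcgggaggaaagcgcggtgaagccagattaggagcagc

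TGACGT was present in 3 of the 7 windows (Fos, Atf3 and Dusp1), and in 7.51% of the 32851 promoters of the same length. Its first base lay 66 bases before the start in Fos and 8 bases before it, on the other strand, in Atf3. Dusp1 held 3 matches, and those at 143 and 141 bases before its start overlap on opposite strands within 1 palindrome, which is also its TGACNTCA match. TGACNTCA was present in 2 of the 7 windows (Jun and Dusp1), and in 8.83% of all promoters. The AP-1 motif TGACTCA was in 0 of 7 windows (5.2% of promoters) and the CArG box, bound by serum response factor, in 0 of 7 (1.63%). TATAAA was in 2 of the 7 windows (13.6% of promoters), those of Fos, 33 bases before the start, and of Junb, where it begins at base 1 after the start. A match only says that these letters are in this window. The serum response element of Fos is known to lie further upstream than the window shown.

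The arrays differed in ways the groups do not explain. On the log2 scale, the signal of the 18S ribosomal RNA control fell into sets separated by its largest gap, a low 18S set of 8 N1-CKO and 8 WT cells (26.9 to 2059) and a high 18S set of 5 N1-CKO and 5 WT cells (12106 to 93363). What set them apart is not in the labels, so differences within each set are given for the members read in several cells. The low 18S arrays also had more probe sets bright at a common threshold, with a median of 5066 against 3641 on high 18S arrays. By group this median was 4433 in N1-CKO cells (2800 to 5670) and 4764 in WT cells (2558 to 6212). The Gapdh control ratio of 3′ over 5′ signal, which grows with short or degraded cDNA, had a median of 2.67 in N1-CKO cells (1.46 to 245.4) and of 1.79 in WT cells (1.40 to 3.26). Notch1 itself was detected in 8 N1-CKO and 10 WT cells, and because the position of its probe set relative to the deleted part is not known here, that does not check the deletion. Marker genes of retinal progenitors, photoreceptors and neurons were detected in the cells of both groups. Of 11 Müller glia genes measured, N1-CKO cells detected a median of 4 and WT cells 5. Of 13 amacrine, horizontal and ganglion cell genes the median was 1 in each group, with at most 6 in an N1-CKO cell and 4 in a WT cell. For the cell types that follow, most listed genes were detected in 0 cells, beside 58.1% of all genes detected in at least 1 cell. Of 9 microglia and blood genes measured, 7, among them Cx3cr1, Csf1r, Aif1 and Ptprc, were detected in 0 cells. The rest, C1qa and Hba-a1, were each detected in at least 1 cell. The list's summed signal ran from 86.8 to 1870 in N1-CKO cells and from 55.2 to 11418 in WT cells. Of 8 endothelium and pericyte genes, 6, among them Pecam1, Cdh5 and Cldn5, were detected in 0 cells. The rest, Kdr and Pdgfrb, were each detected in at least 1 cell. The list's summed signal ran from 114 to 10546 in N1-CKO cells and from 152 to 11025 in WT cells. Kdr, detected in 3 N1-CKO and 9 WT cells, reached 10415 in N1-CKO cells and 10822 in WT cells, and is also known in retinal progenitors. Of 8 pigment epithelium genes 6, and of 5 astrocyte genes 4, were likewise detected in 0 cells. The rest, Mitf and Ttr of the first list and Gfap of the second, were each detected in at least 1 cell.

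Detection was judged within each array: a transcript at or above the 90th percentile of the probe sets there, and so among the 4504 brightest, was called detected. Signals are in MAS5 units on a linear scale, and log2 values were taken after raising signals below 25.02 (log2 of 4.65) to that floor. A difference is the N1-CKO mean minus the WT mean, both of log2 signal, and the SD is over cells. Signals of different probe sets are not amounts that can be set against each other, so members are compared by the number of cells that detected them.

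At least 1 immediate early transcript was detected in every cell of both groups, and in 25 of the 26 cells Egr1 was among them. No member's difference between the groups exceeded its spread over cells, which holds for most genes on these arrays. At least 1 of the 9 members was detected in 13 of 13 N1-CKO cells and in 13 of 13 WT cells. In N1-CKO cell 8 and WT cell 8 it was Egr1 alone, and 0.901% of all genes were detected in as many cells as Egr1. The detection rule passes the 4504 brightest probe sets of every array, whatever the gene. N1-CKO cells detected a median of 3 members (1 to 6) and WT cells a median of 4 (1 to 6). Of the 26 cells, Egr1 was detected in 25, Fos in 18, Jund in 17, Dusp1 in 11 and Ier2 in 9, and Jun, Junb, Fosb and Atf3 in 5 or fewer. These 5 more widely detected members are among the 25.7% of genes detected in at least 6 cells. None of the 9 mean differences reached 2 on the log2 scale, in either direction, and none exceeded the larger SD over cells (n = 13 each, as for all means below), as 1.55% of the genes detected in at least 2 cells did. Among the 8280 genes detected in at least 2 cells, 11.7% differed by at least 2, 4.75% higher and 6.92% lower in N1-CKO cells. A count of 0 among so few members is near that background and is no result about them.

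**Figure D1:**
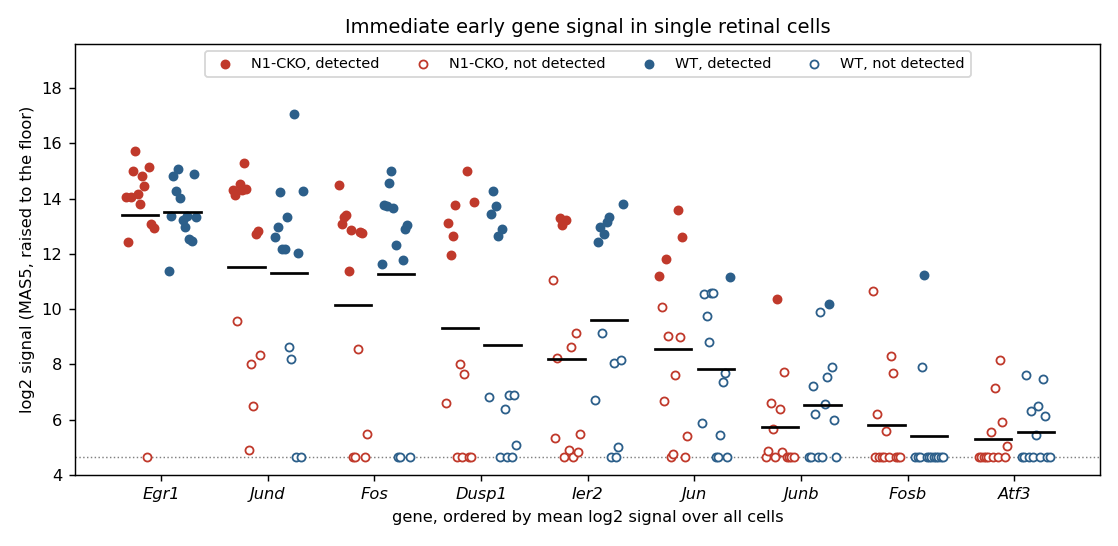
Log2 signal of each immediate early gene in each cell, with N1-CKO cells in red to the left of WT cells in blue. Filled points are detected cells, open points are not, bars are group means and the dotted line is the floor of 4.65. Egr1 stands high in 25 of the 26 cells. Fos, Jund, Dusp1 and Ier2 have detected cells well above the floor. Their undetected cells spread from at or near the floor upward, to 9.57 for Jund and 11.07 for Ier2, in N1-CKO cells 3 and 1.

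Egr1, a zinc finger factor induced through ERK, was the most widely detected member. Its signal was 21.5, 16957 and 54671 in N1-CKO cells (lowest, median and highest) and 2679, 10628 and 34129 in WT cells. It was detected in 12 of 13 N1-CKO cells (92.3%, exact interval 63.97 to 99.8) and in 13 of 13 WT cells (100%, 75.3 to 100). The groups overlapped, but 3 N1-CKO cells lay outside the WT range. Cells 5 (54671) and 11 (35884) were above it, and cell 10 was below it, with 21.5, under the floor, although the same cell had the highest Dusp1 signal of all 26 and a Fos signal of 7093. Only 164 genes, 0.901% of all, were detected in 25 or more cells. Mean log2 signal was 13.41 ± 2.79 in N1-CKO cells and 13.52 ± 1.07 in WT cells, a difference of -0.11, and the N1-CKO spread includes the single cell at the floor. The difference was -0.62 within the high 18S set and 0.21 within the low 18S set.

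Fos, the founding member of its family and a short-lived transcript, was bright where detected and far lower in the other cells. Its signal was 3.45, 6868 and 23007 in N1-CKO cells and 6.09, 7617 and 32753 in WT cells. Detected cells had at least 2697 in N1-CKO and at least 3190 in WT, whereas the brightest undetected cell had 379 in N1-CKO and 12.5 in WT. Fos was detected in 8 N1-CKO cells (61.5%, 31.6 to 86.1) and 10 WT cells (76.9%, 46.2 to 94.96), and 4.55% of genes were detected in as many cells or more. Means were 10.16 ± 3.94 in N1-CKO cells and 11.26 ± 3.89 in WT cells, a difference of -1.09. The difference was 1.02 within the high 18S set and -2.41 within the low 18S set, so its sign rested on the array set. Fosb, the other Fos family member measured, was detected in 0 N1-CKO cells (0%, 0 to 24.7) and in 1 WT cell, WT cell 5, at 2393, where 58.1% of genes were detected in at least 1 cell. That cell also had the highest Fos signal.

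Among the Jun proteins, Jund, which is the one known to be expressed without stimulation in many tissues, was detected most often. Jund gave 30.1, 7308 and 39926 in N1-CKO cells and 8.33, 4675 and 138463 in WT cells. It was detected in 8 N1-CKO cells (61.5%, 31.6 to 86.1) and 9 WT cells (69.2%, 38.6 to 90.9), and 5.41% of genes reached as many cells. Means were 11.52 ± 3.56 in N1-CKO cells and 11.31 ± 3.73 in WT cells, a difference of 0.21. It was -0.98 on high and 0.96 on low 18S arrays. The highest Jund signal of all cells, 138463, was in WT cell 9, and that array was in the high 18S set, where Jund was otherwise detected in 2 cells. A second, dim probe set of Jund was detected in 0 cells of either group, with at most 196 in N1-CKO cells and 176 in WT cells. Junb was detected in 1 N1-CKO cell at 1323 and in 1 WT cell at 1157, with medians of 28.0 in N1-CKO cells and 72.9 in WT cells, and 45.5% of genes reached those 2 cells.

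Jun itself was read by 2 probe sets that passed detection mostly in different cells. The brighter by mean gave 4.62, 514 and 12368 in N1-CKO cells and 4.94, 204 and 2299 in WT cells, and was detected in 4 N1-CKO cells (30.8%, 9.09 to 61.4) and 1 WT cell (7.69%, 0.195 to 36.0). The other gave 4.89, 26.3 and 6318 in N1-CKO cells and 1.01, 817 and 19428 in WT cells, and was detected in 3 N1-CKO and 6 WT cells. Their differences had opposite signs, 0.72 for the first and -1.56 for the second, so the direction of Jun between the groups is not settled. Of 12 cells in which either detected Jun, both did so in 2, N1-CKO cells 1 and 4. The first alone did so in 3 cells and the second alone in 7. In 5 of those 7 the brighter probe set had signal under the threshold. It gave 526 against a threshold of 825 in N1-CKO cell 5. In WT cells 2, 3, 4 and 6 it gave 1514, 859, 446 and 1520 against thresholds of 2409, 1478, 2120 and 2251. By rank it lay between the 85.6th and 89.2nd percentile of its array in these 5 cells. The counts of the brighter one therefore moved with the threshold: at the 85th percentile it was detected in 46.2% of N1-CKO and 46.2% of WT cells, at the 95th in 15.4% of N1-CKO cells and 0% of WT cells, and at 1 common signal in 30.8% of both. Either probe set detected Jun in 38.5% of N1-CKO cells and 53.8% of WT cells. The difference of the brighter one was 3.94 on high and -1.29 on low 18S arrays. Log2 signals of the 2 probe sets correlated across the 26 cells with a Spearman rho of 0.27. Among 1476 genes with 2 probe sets each detected in at least 5 cells, the median share of cells with both among cells with either was 66.7% (quartiles 38.5 and 87.5). For Jun it was 16.7%, and 5.96% of those genes were at or below that value. Where each probe set lies on the transcript was not analysed here, and 3′-primed cDNA favours probes near a transcript's end. Whether this matters for Jun was not tested.

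**Figure D2:**
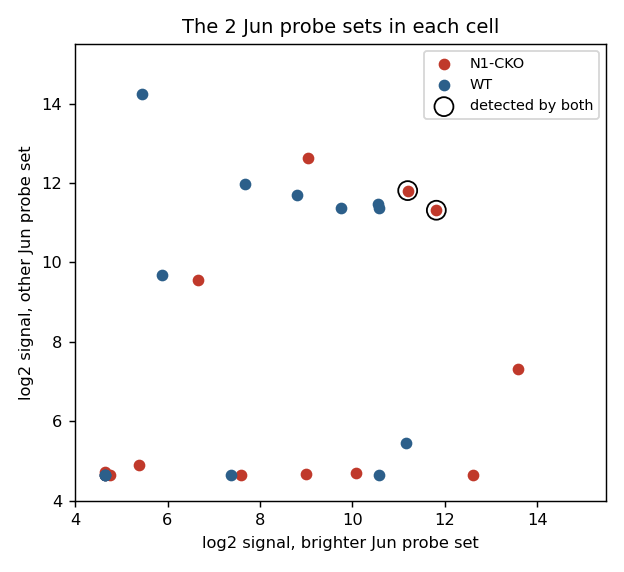
Log2 signal of the brighter Jun probe set (x axis) against the other Jun probe set (y axis), 1 point per cell, N1-CKO in red and WT in blue. Circles mark the 2 cells, both N1-CKO, in which both probe sets detected Jun. In 5 of the other cells, N1-CKO cell 5 and WT cells 2, 3, 4 and 6, both axes have signal but the brighter probe set is under its threshold.

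Atf3, a stress-induced factor of the ATF family that pairs with Jun proteins, was detected in 0 cells of either group. Its signal reached at most 283 in N1-CKO cells and 194 in WT cells, and a share of up to 24.7% of cells is within the exact interval in each group. Its window above is the one with TGACGT nearest the start.

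Ier2, a nuclear immediate early protein, gave 10.1, 302 and 10174 in N1-CKO cells and 7.11, 556 and 14170 in WT cells. It was detected in 3 N1-CKO cells (23.1%, 5.04 to 53.8) and 6 WT cells (46.2%, 19.2 to 74.9), and 17% of genes reached as many cells. In N1-CKO cell 1 it missed detection narrowly, with 2149 against that array's threshold of 2164. Means were 8.19 ± 3.50 in N1-CKO cells and 9.60 ± 3.62 in WT cells, and the difference of -1.40 was the lowest of the 9 and within the spread. It was 1.02 within the high 18S set, where no cell detected Ier2, and -2.92 within the low 18S set.

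Dusp1, a phosphatase that inactivates MAP kinases and so limits the induction of the other members, gave 9.91, 257 and 32673 in N1-CKO cells and 4.77, 117 and 20029 in WT cells. The medians lie among undetected cells, because detected cells had 3978 or more in N1-CKO and 6453 or more in WT. Dusp1 was detected in 6 N1-CKO cells (46.2%, 19.2 to 74.9) and 5 WT cells (38.5%, 13.9 to 68.4), and 12.6% of genes reached as many cells. Means were 9.33 ± 4.13 in N1-CKO cells and 8.70 ± 3.98 in WT cells, a difference of 0.63. Within the high 18S set the difference was 2.89, from 2 N1-CKO cells that detected it and 0 WT cells, and within the low 18S set it was -0.78.

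As a list, 4 members averaged higher and 5 lower in N1-CKO cells, and the median difference was -0.11. Among all 8280 genes detected in at least 2 cells, 48.5% averaged higher and 51.5% lower in N1-CKO cells, and the median was -0.04. Fosb and Atf3 were not among those 8280. Of the 7 members that were, 3 were higher and 4 lower. For the probe sets used, differences outside 2 log2 units appeared within an array set and under no other alternative: Jun at 3.94 and Dusp1 at 2.89 in the high set, and Fos at -2.41 and Ier2 at -2.92 in the low set, each from 5 or 8 cells a group. The other Jun probe set also passed 2, at -2.09, on arrays with a Gapdh ratio of at most 3.

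Several members differed more between the array sets than between the groups. Cells on low 18S arrays detected a median of 4 members in N1-CKO (2 to 6) and 4 in WT (3 to 6), and cells on high 18S arrays a median of 2 in N1-CKO (1 to 4) and 2 in WT (1 to 3). Jund was detected on 14 of 16 low 18S arrays and 3 of 10 high 18S arrays, with a low minus high difference of 5.16 in N1-CKO cells and 3.23 in WT cells. Ier2 was detected on 9 of 16 low and 0 of 10 high 18S arrays, with differences of 1.75 in N1-CKO cells and 5.69 in WT cells. Of the 3087 genes detected in at least 9 cells, 12 (0.389%) were detected on none of the high 18S arrays. Dusp1 was detected on 9 low and 2 high 18S arrays, Fos on 12 low and 6 high ones, and Egr1 on 16 low and 9 high ones. On means over both groups, 7 of the 9 members were higher in the low set, 3 of them by at least 2 (Jund, Ier2 and Dusp1). Among all genes tested 54.2% were higher in the low set, 8.77% by at least 2, and 4.83% were lower there by at least 2. Bright probe sets were fewer on high 18S arrays as well, as given above, and the part of array quality in these counts was not tested.

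**Figure D3:**
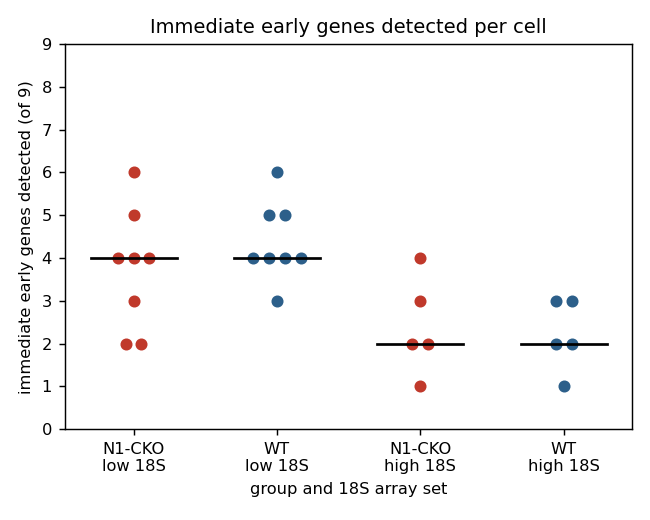
Number of the 9 immediate early genes detected in each cell (y axis), by group and 18S array set (x axis), with bars at the medians. N1-CKO and WT cells overlap within each array set, with medians of 4 on low and 2 on high 18S arrays in both groups.

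Fos and Jun family transcripts were found together in 14 of the 26 cells, in 13 of them as Fos with Jund. The Fos family was detected in 18 and the Jun family in 19 of the 26 cells, so many shared cells follow from these counts alone. Whether the families were found together more often than that was not tested. Signals of Fos and Jund had a Spearman rho of 0.10 over all 26 cells, 0.39 in N1-CKO cells and -0.05 in WT cells. A Fos family and a Jun family member were detected in the same cell in 6 of 13 N1-CKO cells (46.2%, 19.2 to 74.9) and 8 of 13 WT cells (61.5%, 31.6 to 86.1). A further 2 N1-CKO and 2 WT cells had a Fos member alone, 3 N1-CKO and 2 WT cells a Jun member alone, and 2 N1-CKO and 1 WT cell neither. Counting either Jun probe set gave the same numbers. Fos and Jund were both detected in 6 N1-CKO and 7 WT cells. Fos and Jun were both detected in 3 N1-CKO cells and 0 WT cells by the brighter Jun probe set, and in 3 N1-CKO cells and 5 WT cells by the other.

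At least 2 of the 6 AP-1 members (Fos, Fosb, Jun, Junb, Jund and Atf3) were detected in 6 N1-CKO cells (46.2%, 19.2 to 74.9) and 9 WT cells (69.2%, 38.6 to 90.9). At least 3 were detected in 4 N1-CKO cells and 1 WT cell, and no cell had 4. The order of the shares with at least 2 depended on the threshold: at the 95th percentile of each array the share was 38.5% in N1-CKO cells and 23.1% in WT cells.

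**Figure D4:**
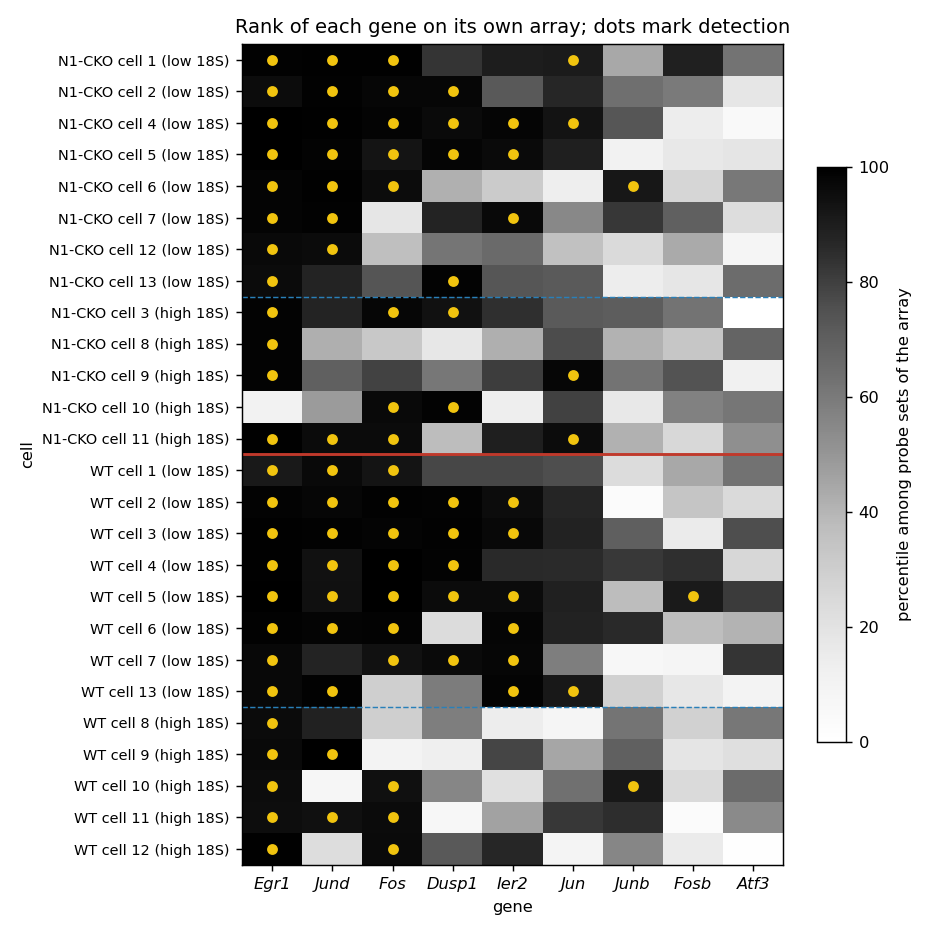
Percentile of each immediate early gene among the probe sets of its own array (grey scale, darker is brighter), with cells as rows, N1-CKO above WT and low 18S above high 18S arrays within each group. Dots mark detection: the Egr1 column is filled in 25 of 26 cells, and the Ier2 column has 0 dots on high 18S arrays.

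Egr1, detected in nearly every cell, was found with Fos in 17 cells and with Jund in 17. Of the 11 cells with Dusp1, 10 also had Fos (5 N1-CKO and 5 WT), the exception being N1-CKO cell 13, and 7 had Jund. Of the 9 cells with Ier2, 8 also had Jund (3 N1-CKO and 5 WT), the exception being WT cell 7, and 7 had Fos. These stand beside Fos in 18 and Jund in 17 of all 26 cells. Ier2 and Dusp1 were both detected in 2 N1-CKO and 4 WT cells. The most frequent of 19 combinations was Fos, Jund, Egr1, Ier2 and Dusp1 together, in 1 N1-CKO and 2 WT cells. N1-CKO cell 8 and WT cell 8, both on high 18S arrays, had Egr1 alone. These counts share each cell's library, and the detection rule sets every array to the same number of detected probe sets.

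Fos signal was higher in cells that detected more progenitor genes, in both groups. Of 12 retinal progenitor genes measured, N1-CKO cells detected a median of 5 (3 to 10) and WT cells 8 (5 to 12). Across cells, Fos log2 signal and the number of progenitor genes detected had a Spearman rho of 0.78 in N1-CKO cells and 0.73 in WT cells (n = 13 each). On low 18S arrays alone rho was 0.75 in N1-CKO cells and 0.63 in WT cells (n = 8 each). N1-CKO cells with Fos had 3 to 10 progenitor genes and those without it 3 to 5. WT cells with Fos had 6 to 12 progenitor genes and those without it 5 to 8. Fos was detected in 12 of 13 cells with Rlbp1, a retinaldehyde-binding protein of progenitors and Müller glia, and in 6 of 13 cells without. Rlbp1 is counted here in the Müller glia list. The number of genes of that list detected gave a rho with Fos of 0.49 in N1-CKO cells and 0.34 in WT cells. With Hes1, a gene of the progenitor list, Fos was detected in 6 of 7 cells, and without it in 12 of 19. It was detected in 13 of 15 cells with the proliferation antigen Mki67 and in 5 of 11 cells without. In WT only 2 cells lacked Mki67, and 1 of them had Fos. With the neuronal tubulin Tubb3, Fos was detected in 11 of 14 cells, and without it in 7 of 12. These are descriptions: the points share library quality, and Fos correlated with the number of bright probe sets as well, with rho of 0.48 in N1-CKO cells and 0.59 in WT cells. They are among 168 correlations computed between the members and cell state or array measures.

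**Figure D5:**
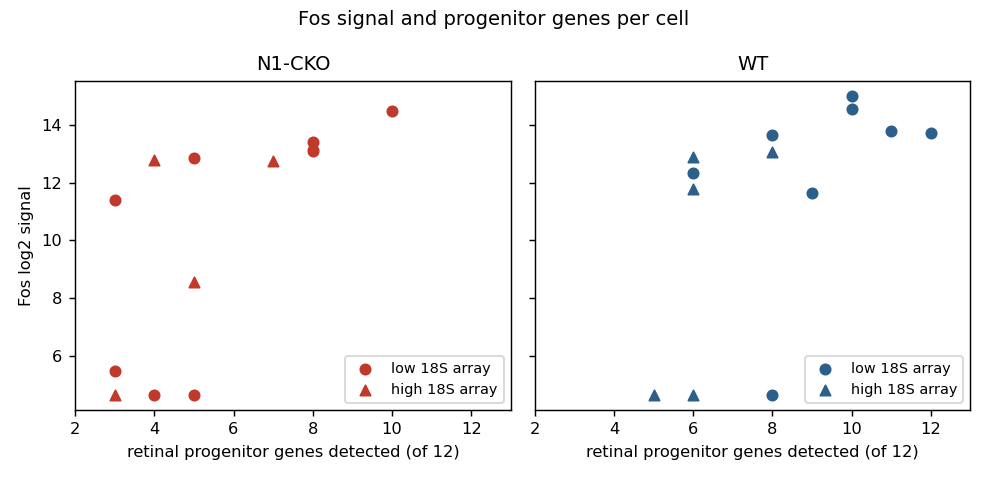
Fos log2 signal (y axis) against the number of 12 retinal progenitor genes detected in the same cell (x axis), N1-CKO left and WT right, circles for low and triangles for high 18S arrays. Cells with most progenitor genes lie high in both panels, with rho of 0.78 in N1-CKO and 0.73 in WT cells, while cells with few lie both high and low.

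Several other pairs of a member and a cell state differed in size or sign between the groups. Fos against the number of photoreceptor genes detected gave a rho of 0.70 in N1-CKO cells and -0.33 in WT cells. Dusp1 against progenitor genes gave -0.13 in N1-CKO cells and 0.69 in WT cells. Whether such a pair of values differs between the groups was not tested. Fos against the 21 G2/M and mitosis genes gave 0.57 in N1-CKO cells and 0.40 in WT cells. The number of members detected went with progenitor genes at 0.53 in N1-CKO cells and 0.74 in WT cells, and against the 18S signal at -0.59 in N1-CKO cells and -0.74 in WT cells. On low 18S arrays the first was 0.39 in N1-CKO cells and 0.61 in WT cells, and the second -0.27 in N1-CKO cells and -0.18 in WT cells. Jund against the 18S signal gave -0.82 in N1-CKO cells and -0.47 in WT cells. Egr1, detected in 25 of 26 cells, leaves no room to compare detection between states. Its signal against the number of neuronal and synaptic genes gave -0.19 in N1-CKO cells and -0.61 in WT cells, and on low 18S arrays -0.80 in N1-CKO cells and -0.80 in WT cells. Counts by single state genes varied, and the next 2, pooled over the groups, are named for their contrast. Ier2 was detected in 9 of 21 cells with the intermediate filament gene Vim and in 0 of 5 without. Jund was detected in 7 of 7 cells with the Notch target Hes1, 1 of them N1-CKO, and in 10 of 19 without. In other pairs Ier2 was detected in 5 of 15 cells with Mki67 and 4 of 11 without, and Jund in 13 of 21 with Vim and 4 of 5 without. Both members also differed between the array sets.

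Lists of cell state genes had larger median differences than the members. All 21 G2/M genes averaged lower in N1-CKO cells, by a median of -3.40, and N1-CKO cells detected a median of 2 (0 to 12) and WT cells 12 (2 to 21). Progenitor genes had a median of -1.84, neuronal and synaptic genes of 1.99 and photoreceptor genes of 1.91. The photoreceptor value came from 4 higher and 3 lower genes and was -0.19 without probe sets shared between transcripts. The neuronal value was 0.84 with all probe sets of a gene and 0.75 on high 18S arrays, and the progenitor value was -0.81 on high 18S arrays. The members' own median, -0.11, lay between those of the lists that averaged lower and higher.

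The genes most like each widely detected member, by Spearman rho over all 26 cells among 4681 genes detected in at least 6 cells, were of mixed kinds. For Fos they were Tsen34, a subunit of the tRNA splicing endonuclease (0.73), the small GTPase gene Arf6 (0.72) and Rlbp1 (0.70). For Jund they were Mrgbp (0.71), the RNA-binding protein gene Syncrip (0.67) and the eye field factor Rax (0.65). For Egr1 they were the HSP90 co-chaperone gene Chordc1 (0.68), Sapcd1 (0.66) and Larp4b (0.62). For Ier2 they were the noncoding RNA gene Zfas1 (0.69), the splicing helicase gene Aqr (0.66) and Sec23a, a COPII coat subunit (0.66). For Dusp1 they were the growth factor binding protein gene Igfbp4 (0.72), the signal peptidase subunit gene Spcs1 (0.66) and the deadenylase gene Pan2 (0.63). No other member was among the 3 nearest genes of any member, with Fos, Jund, Egr1, Ier2 and Dusp1 all in the search. So few members among 4681 genes would rarely take 1 of 3 places, so this does not show whether they vary together. Between these members, rho over all 26 cells ran from -0.12 (Jund and Dusp1) to 0.47 (Egr1 and Ier2).

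Other genes of the pathway were taken from lists made by function, and most of them also differed by less than 2 log2 units. Of 13 kinases and factors upstream, 12 were detected in at least 2 cells. In N1-CKO cells 5 of them averaged higher and 7 lower, 0 of them past 2 log2 units, and the median was -0.17. Map2k2, a kinase that activates ERK, was detected in 7 N1-CKO and 5 WT cells and differed by 1.51, and the factor gene Creb1 (6 N1-CKO and 5 WT cells) by 1.43. The p38 kinase gene Mapk14 was detected in 6 N1-CKO and 7 WT cells (-0.70) and the JNK gene Mapk9 in 3 N1-CKO and 3 WT cells (-0.79).

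Among feedback inhibitors of MAP kinases other than Dusp1, 5 of 11 were detected in at least 2 cells, 2 with higher and 3 with lower means, and the median was -0.47 (-2.24 with medians over cells). 1 was past 2 log2 units in each direction, beside 4.75% of genes higher and 6.92% lower. Dusp4, a nuclear ERK phosphatase, was detected in 8 N1-CKO and 4 WT cells, with signals of 42.1, 4743 and 24545 in N1-CKO cells and 5.97, 281 and 19962 in WT cells. Its means were 10.82 ± 3.34 in N1-CKO cells and 8.34 ± 3.57 in WT cells, a difference of 2.47 that was past 2 log2 units and within the SD over cells. Dusp6, a cytoplasmic ERK phosphatase, was detected in 3 N1-CKO and 4 WT cells and differed by -1.76, and Spred1 in 4 N1-CKO and 4 WT cells (-0.47). The lower one past 2 was Spry1, an inhibitor of receptor tyrosine kinase signalling named after its values were seen, detected in 0 N1-CKO and 3 WT cells (-3.03). Its means were 4.94 ± 0.57 in N1-CKO cells, near the floor, and 7.97 ± 2.86 in WT cells. The difference exceeded the larger SD, as it did for 1.55% of genes detected in at least 2 cells.

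Of 29 further immediate early genes, 11 were detected in at least 2 cells, 5 with higher and 6 with lower means. The median was -0.42, and its sign was opposite under 6 of 11 alternatives (-0.56 to 0.41), counting the lowest and highest value with 1 cell left out. The 1 gene past 2 log2 units was Klf6, a zinc finger factor named after its values were seen, detected in 0 N1-CKO and 4 WT cells (-2.61). Egr3, Klf4, Zfp36, Myc, Ccn1, Ccn2 and Plk2 were detected in 0 cells. The antiproliferative gene Btg2 was detected in 11 N1-CKO and 7 WT cells, with means of 12.55 ± 3.76 in N1-CKO cells and 10.87 ± 3.66 in WT cells (a difference of 1.68). Ier5 was detected in 6 N1-CKO and 8 WT cells (-1.14), the survival gene Mcl1 in 10 N1-CKO and 10 WT cells (-0.61) and the growth arrest gene Gadd45g in 5 N1-CKO and 3 WT cells (0.51). Of 11 other AP-1 and bZIP partners, 4 were detected in at least 2 cells, 2 higher and 2 lower. Atf4, the factor of the integrated stress response, was detected in 13 of 13 N1-CKO and 13 of 13 WT cells, with 13.55 ± 1.13 in N1-CKO cells and 12.85 ± 1.41 in WT cells (a difference of 0.70). Mafg was detected in 4 N1-CKO and 4 WT cells (0.67) and Atf2 in 3 N1-CKO and 4 WT cells (-0.56).

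Heat shock genes, which cell handling can also induce, were detected unevenly. Of the 11 measured, 3 were detected in 0 cells of either group, Hspa1a, Hspa1b and the co-chaperone gene Bag3. Of all genes, 58.1% were detected in at least 1 cell. Dnaja1, an HSP70 co-chaperone, was detected in 9 N1-CKO and 13 WT cells, with signals of 15.2, 3560 and 19075 in N1-CKO cells and 3504, 13981 and 102086 in WT cells. Its difference was -2.60, just short of the larger SD of 2.66. Hspd1 was detected in 8 N1-CKO and 9 WT cells (-1.17), Hspe1 in 9 N1-CKO and 11 WT cells (-0.62) and Dnajb1 in 6 N1-CKO and 6 WT cells (0.72). Over the 7 heat shock genes detected in at least 2 cells, 4 averaged higher and 3 lower in N1-CKO cells, and the median was 0.02. The sign of this median was opposite under 7 of 11 alternatives (-0.64 to 0.22), counting the lowest and highest value with 1 cell left out.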

How the data were processed

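Single-cell cDNA was primed with oligo dT, tailed, amplified by PCR and hybridised to Affymetrix arrays, per the labels' protocols. The authors deposited 1 linear intensity per probe set and cell, from MAS5 according to the submitters' processing notes. With 2% trimmed from each end, the mean of every array was 500, so they say nothing of the total RNA of a cell. No MAS5 version is given in the sources used here, and its detection calls were not used. Of 45101 probe sets, 64 were controls. GEO's platform annotation gave 1 symbol to 34945 of the rest, several to 932, which were left out, and none to 9160.

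Here, log2 was taken after lifting lower signals to 25.02, the median of all arrays pooled. Each gene was read from its probe set of highest mean log2 over all cells. Detection meant reaching the 90th percentile of a cell's own array. Groups came from the labels. The 95% intervals beside shares are exact (Clopper-Pearson) and reflect counting error alone, and the number of arrays limits precision. No test between groups was made. Log2 signals of array pairs correlated with r of 0.18 to 0.56 over 325 pairs, so no array was a copy of another. Array sets were split at the largest gap in the log2 18S control signal. Named genes were every member, up to 4 genes with the largest differences per other list among those detected in at least 6 cells, and the 3 genes most like each member by Spearman correlation. Genes detected in 0 cells, marker genes and genes used to describe cell state (Mki67, Rlbp1, Vim, Hes1, Tubb3) and Klf6 and Spry1 are named outside that rule. The members and lists were chosen with earlier results of these data known. Calculations used Python 3.11.15, pandas 2.3.3, NumPy 2.4.6 and SciPy 1.17.1. The difference step was tested on simulated data whose spread over cells was capped below that of the members. The detection rule was not simulated, and passes the same number of probe sets on every array by construction. Alternatives were the floor, quantile normalization, the choice of probe sets, medians, the detection threshold, the array sets, only arrays with a Gapdh ratio up to 3 (taken from an earlier look at these data) and leaving out each cell.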

Additional observations from a re-analysis of the deposited data

How the results depend on the processing

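Over the alternatives that did not leave out a cell, 80 of 81 differences of single members moved by less than 1 SD over cells. That is a wide measure, as the larger SD ran from 1.13 for Atf3 to 4.13 for Dusp1. Some of the 81 could not move: leaving out shared probe sets changed no member, and using all probe sets could change only Jun and Jund. The exception was Jun, at 3.94 in the high 18S set. The sign was less stable. It was set against 11 values per member, which here include the lowest and highest with 1 cell left out. For 8 of the 9 members, all but Junb, it was opposite in at least 1 of the 11 (4 for Egr1, 4 for Jund, 3 for Atf3, 2 for Jun and 1 for each of the others). The members' median difference of -0.11 was -0.52 on low 18S arrays, 1.02 on high 18S arrays and 0.04 with the higher floor. With 1 cell left out it ran from -0.31 (without WT cell 12) to 0.16 (without N1-CKO cell 10). The number of members with a higher mean in N1-CKO cells was 2 in the low 18S set, in place of 4. WT cells detected a median of 2 members in the high 18S set, in place of 4. At the 95th percentile, at least 2 AP-1 members were detected in 38.5% of N1-CKO cells and 23.1% of WT cells, in place of 46.2% of N1-CKO cells and 69.2% of WT cells. Of the counts of cells with each member, 143 of 162 stayed within the exact interval of the value given. Quantile normalization keeps the ranks within an array, so it left these counts as they were, as did leaving out shared probe sets. Of the medians of related lists 124 of 126 stayed within 1 SD over cells. No paired analysis was possible because no test between groups was made and the numbers in the labels only name cells. Depth has no equivalent in these files: a signal near the floor cannot be told from background, and 13 cells a group leave the wide intervals given beside each share.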

Other observations

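Single cells departed from the usual combinations. N1-CKO cell 10 lacked Egr1, with a signal of 21.5, yet had the highest Dusp1 signal, 32673, and a Fos signal of 7093. Its array was in the high 18S set and had 2800 bright probe sets, the fewest of the N1-CKO cells. N1-CKO cell 9 had the highest signal of the brighter Jun probe set, 12368, with Egr1 and without Fos or Jund. WT cell 5 was the only cell with Fosb and had 6 of the 9 members, together with 20 of 21 G2/M genes and 10 of 12 progenitor genes. N1-CKO cell 4, the other cell with 6 members, had 1 of 21 G2/M genes and 8 of 12 progenitor genes.

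Among N1-CKO cells on low 18S arrays, cells that detected more of the 9 members also detected more of the 29 other immediate early genes, with a Spearman rho of 0.85 over 8 cells. In WT cells on low 18S arrays rho was 0.09 over 8 cells, and over all 13 cells it was 0.15 in N1-CKO cells and -0.37 in WT cells. The points share library quality, and the difference between the groups was not tested.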
